A study of Andrographis paniculata with 12 samples.

Results

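The light-harvesting antenna genes of Andrographis paniculata leaves were described over 48 h of treatment with methyl jasmonate (MeJA), a volatile form of a plant wound and defence hormone. The members are the assembled genes whose best Swiss-Prot hit is named chlorophyll a-b binding, light-harvesting or early light-induced and whose level reached 1 at any time. They number 30 of 32064 assembled genes, and all 30 genes with such a name reached that level. All were named chlorophyll a-b binding protein except a pair of early light-induced protein hits.

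A. paniculata is a medicinal herb of the Acanthaceae. Leaves were taken at 0, 12, 24 and 48 h of MeJA, with 3 biological replicates per time in the labels, and strand-specific libraries of mRNA were sequenced. The dose of MeJA, the age and genotype of the plants and the clock times are not stated in the labels. No untreated leaves of 12, 24 or 48 h were analysed here, so every later group carries both the treatment and the passing of time.

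Antenna proteins hold chlorophyll a, chlorophyll b and carotenoids in the thylakoid membrane of the chloroplast and pass the energy of absorbed light to the reaction centres. The trimers of light-harvesting complex II (LHCII) and the single proteins CP29, CP26 and CP24 serve photosystem II, and a belt of Lhca proteins serves photosystem I. Early light-induced proteins (ELIPs) are relatives known from Arabidopsis and pea to appear in strong light and during greening, and are held to be protective. Antenna genes are encoded in the nucleus, are among the most expressed genes of green leaves, and in Arabidopsis follow the circadian clock.

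Every level below is the authors' mean over the replicates of a time, in their normalised units, with no error, no replicate number and no read count behind it. No spread between replicates could be computed, no test was run, and no p-value stands behind any difference. Higher and lower are used of genes past a size threshold, a difference of at least 1 in log2(level + 1), called 2-fold here. The 29399 genes that reached a level of 1 at some time give the background. Whether a level is per transcript length is not stated, so differences are drawn between times of the same gene. Sums over genes describe the table only. A lower level in whole leaves can come from fewer cells of a type or from less RNA per cell, and the data cannot tell these apart.

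Leaf identity was checked by 10 hits to the Rubisco small chain and Rubisco activase. Their summed level was 28389 at 0 h, 2796 after 12 h, 12908 after 24 h and 16869.6 after 48 h, and none of them was listed at 0 at 0 h. These leaf genes were also at their lowest sum at 12 h. No assembled gene carried the chloroplast carbonic anhydrase name or one of the root or flower names that were searched.

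The antenna genes stood high at the start, were 35.8 times lower in sum at 12 h and came partly back at 24 and 48 h. Their summed level was 36356 at 0 h, 1014 after 12 h, 5920.4 after 24 h and 6586 after 48 h. This was 4.20%, 0.104%, 0.613% and 0.706% of the column sums. At 0 h, 12 of the 30 members stood among the 100 highest genes of the table and the highest of them ranked 3. At 12 h none stood among the 100 highest and the highest member ranked 275. At both later times 1 member was again among the 100 highest.

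**Figure D1:**
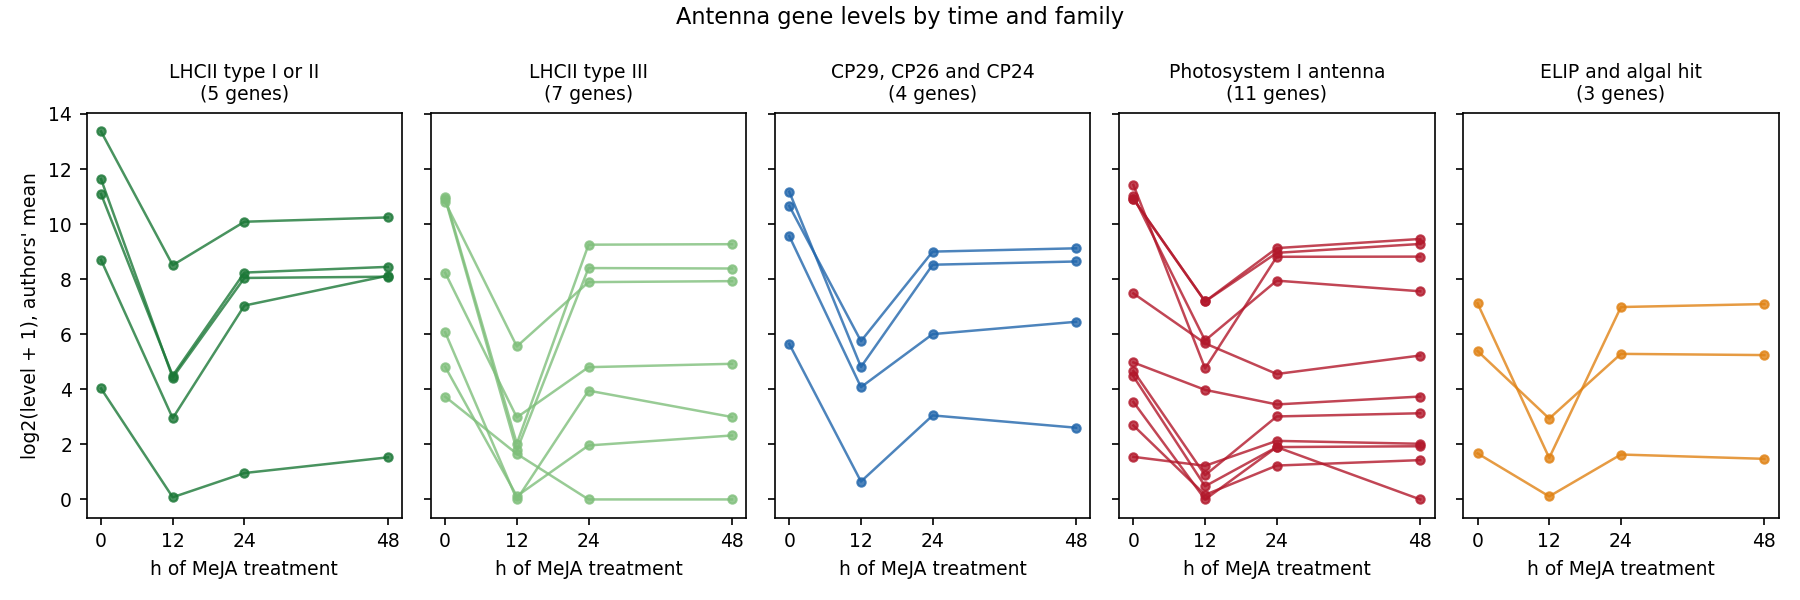
Levels of the 30 antenna genes at 0, 12, 24 and 48 h of MeJA treatment, as log2(level + 1) of the authors' means, with 1 line per assembled gene and 1 panel per family. In each of the 5 families most lines dip at 12 h and return in part at 24 h, and from 24 to 48 h most are nearly flat.

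At 12 h, 28 of the 30 members were lower than at 0 h by 2-fold or more and none was higher, where 17.7% of all genes tested were lower and 15% higher. The median log2 difference of the members was -4.89, against 0.06 over all genes tested. In 15 members, called abundant here, the mean over the 4 times was 100 or more. In these the level at 12 h was 0.126% to 7.56% of that at 0 h, with a median of 1.62%. The 2 members not counted as lower were a hit to a petunia photosystem I antenna protein (TR53725|c0_g2), with a log2 difference of -0.996 just short of the threshold, and a faint second hit to the same entry (TR74538|c1_g1), at -0.33. The former was counted as lower with each column divided to a common sum, at -1.16, and with median-of-ratios scaling, at -1.09.

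The LHCII type I and type II proteins make up most of the trimers around photosystem II. The member with the highest level in the table was a hit to tobacco CAB21 (TR17188|c7_g3), at 10556, 363, 1085 and 1209.6 over the 4 times. The hit to rice RCABP89 (TR39102|c0_g1) was at 3181, 20.5, 263 and 271. The hit to petunia CAB37 (TR14107|c0_g2) was at 2185, 21.6, 301.1 and 348. All of these were lowest at 12 h, and at 48 h they stood at 8.53% to 15.9% of their own start.

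A second CAB21 hit (TR73509|c0_g1) came back further than those. It was at 415, 6.73, 130.7 and 278 over the 4 times, or 31.5% of its start at 24 h and 67.0% at 48 h. It was the 1 member counted as higher at 48 h than at 24 h. Of the 5 genes placed in this family, it was the 1 not counted as lower at 48 h than at 0 h. An algal-entry hit named LHCII type I, described below, was kept out of this family and was not counted as lower at 48 h either. A piece on the component of the CAB37 hit (TR14107|c0_g3) was at 15.3, 0.0563, 0.943 and 1.88.

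LHCII type III forms mixed trimers with the other types and in Arabidopsis belongs to the trimer that sits next to CP24. Of the abundant members, it held those with the lowest share of their start at 12 h. The hit to a barley type III protein (TR32853|c2_g2) was at 1944, 2.45, 337 and 334, and its level at 12 h was 794 times lower than at 0 h. A hit to tomato CAB13 (TR20636|c0_g2), also a type III entry, was at 2020.06, 3.08, 609 and 616. That is 0.152% of its start at 12 h and 30.1% at 24 h, a 198-fold difference between these times. At 24 h both stood at a larger share of their start than the CAB21 hit TR17188|c7_g3, the RCABP89 hit and the CAB37 hit.

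Other CAB13 hits did not share that depth. TR59566|c0_g1 was at 1782, 46.1, 236.5 and 242.6, and TR85708|c1_g2 at 300.4, 6.88, 26.9 and 29.4. At 12 h these were at 2.59% and 2.29% of their start, and at 24 h at 13.3% and 8.96%. Hits to 1 entry thus had unlike time courses. The small pieces TR32853|c2_g1 and TR20636|c0_g1, on the components of the pair that was lowest at 12 h, were at 66.3 and 27.2 at 0 h. The first was listed at 0 at 12 h and the second was at 0.0867, and at 24 h they were at 14.5 and 2.89. A last CAB13 hit (TR38081|c0_g1) was at 12.3 and 2.15 at 0 and 12 h and listed at 0 at 24 and 48 h.

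CP29, CP26 and CP24 are single proteins that link the trimers to the photosystem II core. The CP26 hit (LHCB5, TR49714|c5_g4) was at 1618, 52.8, 511 and 555 over the time course. The CP24 hit (CAP10A, TR21992|c0_g1) was at 2311, 27.1, 367 and 398. The CP29 hit (LHCB4.1, TR17159|c0_g1) was at 757, 15.9, 63.2 and 86.5. All of them were lowest at 12 h, at 1.17% (CP24) to 3.26% (CP26) of their start. At 24 h the CP26 hit stood at 31.6% of its start, the CP24 hit at 15.9% and the CP29 hit at 8.35%. A smaller CP24 piece (TR21992|c0_g2) was at 49.1, 0.570, 7.29 and 5.08.

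The photosystem I antenna is a belt of the proteins Lhca1 to Lhca4, in which Lhca1 pairs with Lhca4 and Lhca2 with Lhca3. The hit to tomato CAB6A (TR65618|c5_g4), an Lhca1 protein, was at 1919.99, 145, 559 and 703. The hit to tomato CAB8 (TR27416|c0_g2), an Lhca3 protein, was at 1930.07, 144.9, 495 and 619.7. At 12 h these kept 7.56% and 7.51% of their start, the highest shares among the abundant members.

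Among the abundant hits, their partners in the belt kept a smaller share at 12 h. Less abundant photosystem I hits, some with larger shares, are given in the next paragraph. The hit to tomato CAB7 (TR50371|c2_g1), an Lhca2 protein, was at 2751, 26.1, 448 and 450.3, and the hit to Arabidopsis LHCA4 (TR80702|c4_g1) was at 2061, 53.7, 246 and 188. These were 0.947% and 2.60% of the start at 12 h. The LHCA4 hit was at 11.9% of its start at 24 h and at 9.10% at 48 h, a difference below the threshold. In 13 of the 15 abundant members the value at 48 h exceeded that at 24 h.

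A pair of photosystem I antenna hits ran against the dip and return of the others. The hit to pea lhcA-P4 (TR74538|c0_g1) was at 178, 49.9, 22.5 and 36.4 over the 4 times, so it was lower at 24 h than at 12 h by 2-fold or more. The petunia hit TR53725|c0_g2 was at 30.5, 14.8, 9.93 and 12.3. At 12 h these stood at 28.0% and 48.5% of their start, and both were lowest at 24 h. The remaining photosystem I hits were small: TR14262|c0_g1 was at 24.5 and 0.840 at 0 and 12 h, the LHCA4 piece TR80702|c4_g2 at 21.1 and 0.395, TR22699|c0_g1 at 10.6 and listed at 0, and TR65618|c5_g2 and TR74538|c1_g1 under 10 at every time. TR74538|c1_g1, at 1.92, 1.33, 3.37 and 3.06, was the 1 member of the 30 that was not highest at 0 h.

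The early light-induced protein hit (ELI, TR79546|c0_g2) had the fullest return among the abundant members. It was at 138, 1.84, 125.9 and 136 over the 4 times, which is 91.0% and 98.1% of its start at the later times. Its second piece (TR79546|c0_g1) was at 2.19, 0.0797, 2.10 and 1.78. The hit whose closest entry is an algal LHCII protein (CB2 of a Chlamydomonas, TR35347|c0_g1) was at 41.0, 6.66, 38.0 and 36.9. That entry is named LHCII type I, and the hit was set apart from the type I and II family here. These 3 members were all lower at 12 h by 2-fold or more, and none of them was counted as lower at 24 or 48 h.

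**Figure D2:**
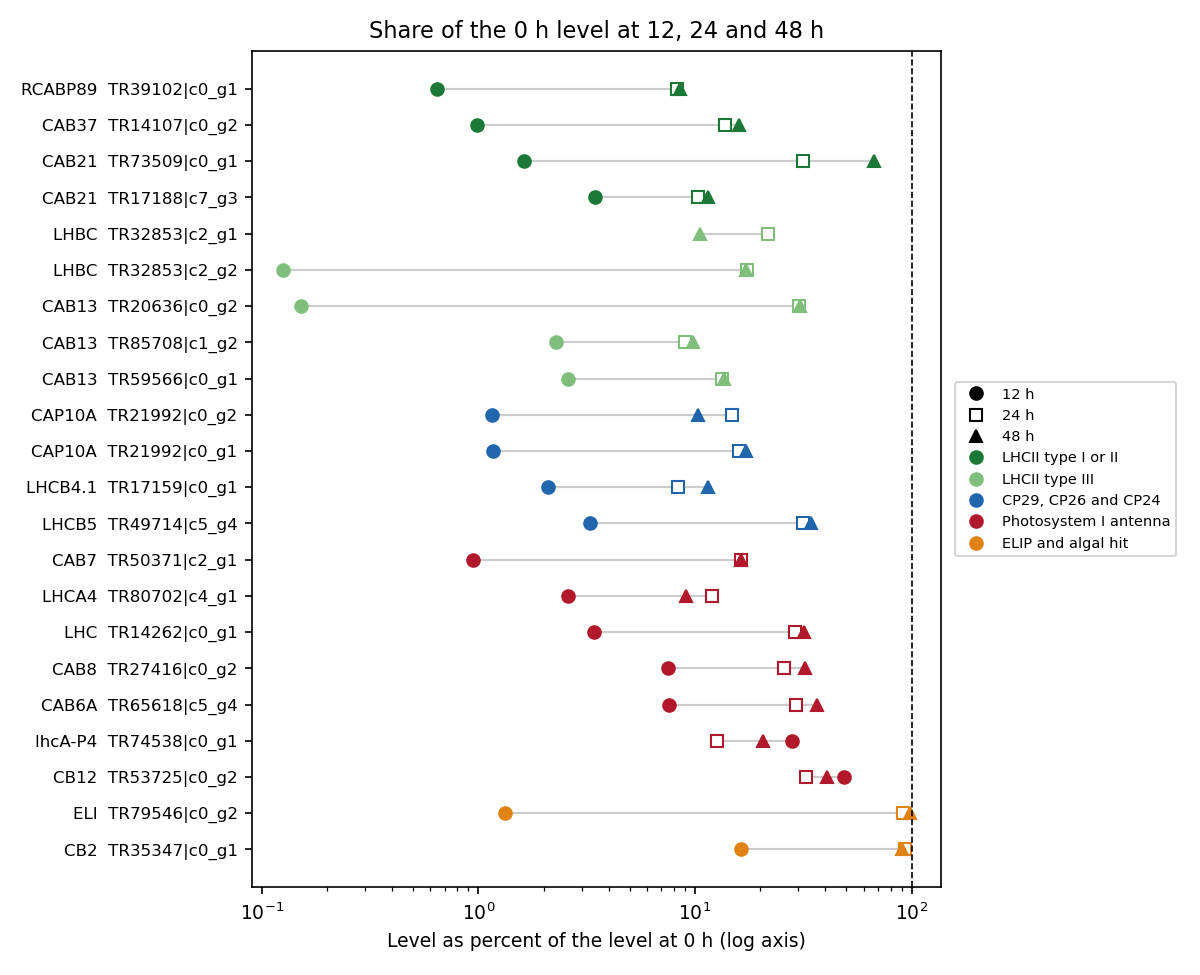
Level at 12 h (filled circles), 24 h (open squares) and 48 h (triangles) as percent of the level at 0 h, on a log axis, for the 22 antenna genes with a mean level of at least 10, coloured by family, and the dashed line marks 100%. The early light-induced and algal-entry hits stand near the line at 24 and 48 h, lhcA-P4 and CB12 are lowest at 24 h, and the value of TR32853|c2_g1 at 12 h, listed at 0, is not drawn.

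Leaves of 24 h show which differences remained a full day into treatment. Their comparison with 0 h shares the 0 h leaves with the comparisons of 12 and 48 h, so these are not independent of each other. At 24 h, 26 of the 30 members were lower than at 0 h and none was higher, where 16.9% of all genes tested were lower and 13.4% higher. The median of the members was -2.55 and that of all genes tested 0.01. The 4 members not counted were the early light-induced hits, the algal-entry hit and TR74538|c1_g1. In the abundant members the level was 8.26% to 91.0% of that at 0 h, with a median of 16.3%.

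At 48 h, 25 members were lower than at 0 h and none was higher, where 19.6% of all genes tested were lower and 12.2% higher. The median was -2.52 against -0.09 over all genes tested. The summed level was 18.1% of that at 0 h, after 2.79% at 12 h and 16.3% at 24 h.

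Between 12 and 24 h the members moved back up together. Of the 30, 25 were higher at 24 h by 2-fold or more and 2 were lower, where 10.6% of all genes tested were higher and 11.1% lower. The median was 2.04 against -0.04 over all genes tested. The 2 lower members were the lhcA-P4 hit and the CAB13 hit TR38081|c0_g1. In the abundant members the level at 24 h was 2.99 to 198 times that at 12 h, with a median of 12.9.

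Between 24 and 48 h the antenna genes hardly differed. Of the members, 1 was higher by 2-fold or more (the CAB21 hit TR73509|c0_g1) and 1 lower (TR22699|c0_g1, at 2.73 and listed at 0), where 2.36% of all genes tested were higher and 4.5% lower, so these counts are near the background. The median was 0.11 against -0.10 over all genes tested. In the whole table, 34.4% of the genes called between these times were higher as deposited and 45.3% with median-of-ratios scaling.

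The make-up of the antenna differed between times. A share of the summed antenna level within 1 column does not depend on how the columns are scaled. The LHCII type I and II hits, without the algal-entry hit, held 45.0%, 40.6%, 30.1% and 32.0% of it at the 4 times in order. The type III hits held 16.9%, 5.99%, 20.7% and 18.7%. The photosystem I hits held 24.6%, 43.1%, 30.4% and 30.7%, and CP29, CP26 and CP24 held 13.0%, 9.50%, 16.0% and 15.9%. Photosystem I hits thus held their largest share and type III hits their smallest at 12 h. The larger share was not common to all photosystem I hits. From 0 to 12 h the CAB6A hit went from 5.28% to 14.3%, the CAB8 hit from 5.31% to 14.3% and lhcA-P4 from 0.489% to 4.91%. The CAB7 hit went from 7.57% to 2.57% and the LHCA4 hit TR80702|c4_g1 from 5.67% to 5.29%.

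The sum of the photosystem II antenna hits, without the algal-entry hit, was 3.05 times that of the photosystem I hits at 0 h. This ratio was 1.30 at 12 h, 2.20 at 24 h and 2.17 at 48 h. Without the CAB21 hit TR17188|c7_g3, which alone made up 29.0% of the antenna sum at 0 h and 35.8% at 12 h, the ratios were 1.87, 0.471, 1.60 and 1.57. The ratio was lowest at 12 h with and without that gene.

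**Figure D3:**
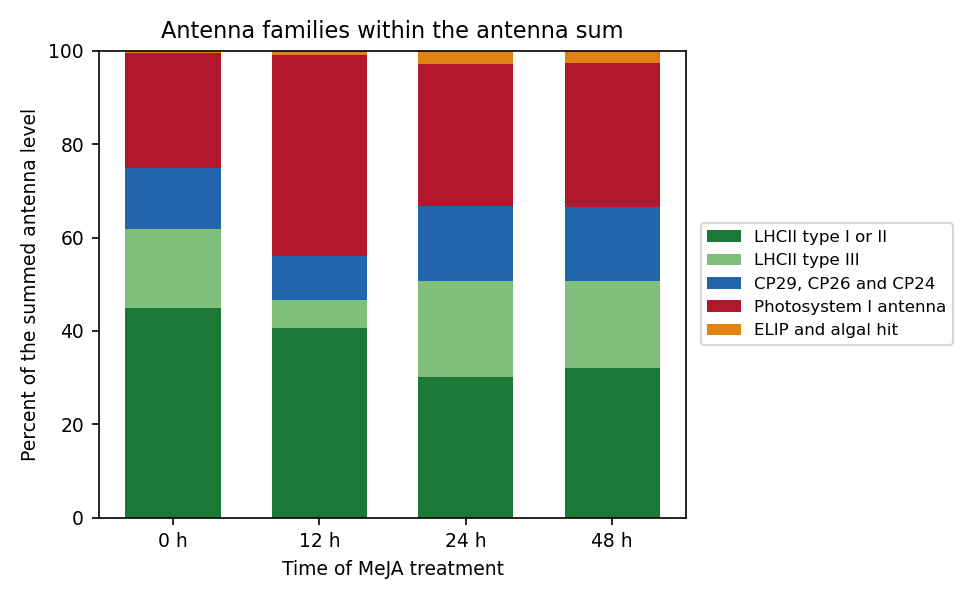
Percent of the summed antenna level held by each of the 5 families at 0, 12, 24 and 48 h of MeJA treatment, as stacked bars that add to 100. The photosystem I share is largest at 12 h (43.1%) and the LHCII type III share smallest there (5.99%).

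The photosystem cores that the antenna feeds, the Calvin cycle and chlorophyll synthesis were set beside it as the most similar groups. At 12 h, 25 of 25 photosystem core hits with chloroplastic in their name, mostly nuclear-encoded subunits, were lower, with a median of -2.94. At 24 and 48 h, 24 and 25 of them were lower, with medians of -2.17 and -2.08. Over all genes tested, 17.7%, 16.9% and 19.6% were lower at 12, 24 and 48 h. The 8 core hits without that word were small subunits such as PsbK and PsbM that plants encode in the plastid. Their median was -0.41 with 1 lower at 12 h, a count not above the background, and -1.18 with 5 lower at 24 h. Only 3 of them had a mean level of at least 10, and adding 1 before the log shrinks differences of low genes. In these 3 the median was 60.5%, 19.6% and 14.1% of the start at 12, 24 and 48 h. In the 17 such hits with chloroplastic in their name it was 10.2%, 21.1% and 16.8%. PsbR (TR38528|c4_g2), a 10 kDa protein of photosystem II and the core hit with the highest mean level, was at 10441, 760.5, 3224 and 3348. The core hit with the largest difference at 12 h was PsbO (TR63910|c1_g1), part of the oxygen-evolving complex, at 463, 4.11, 51.0 and 53.6.

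In the Calvin cycle list, 14 of 16 genes were lower at 12 h and 6 were lower at each later time, with medians of -2.58, -0.70 and -0.63. Rubisco activase RCA1 (TR86921|c9_g1) was at 7713, 31.0, 5987 and 8364, and the Rubisco small chain (TR76467|c8_g3) at 19739, 2739, 6494 and 8099. Of 16 chlorophyll synthesis genes, 11 were lower at 12 and at 24 h and 10 at 48 h, with 1 higher at each, and medians of -3.18, -1.50 and -1.26. Over all genes tested, 17.7%, 16.9% and 19.6% were lower and 15%, 13.4% and 12.2% higher at these times. The count of 1 higher gene is thus not above the background. The cyclase CRD1 (TR43378|c0_g2), which closes the fifth ring of chlorophyll, was at 978, 6.15, 285 and 367. Whether the antenna differs from these groups was not tested, since the table has 1 mean per time.

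**Figure D4:**
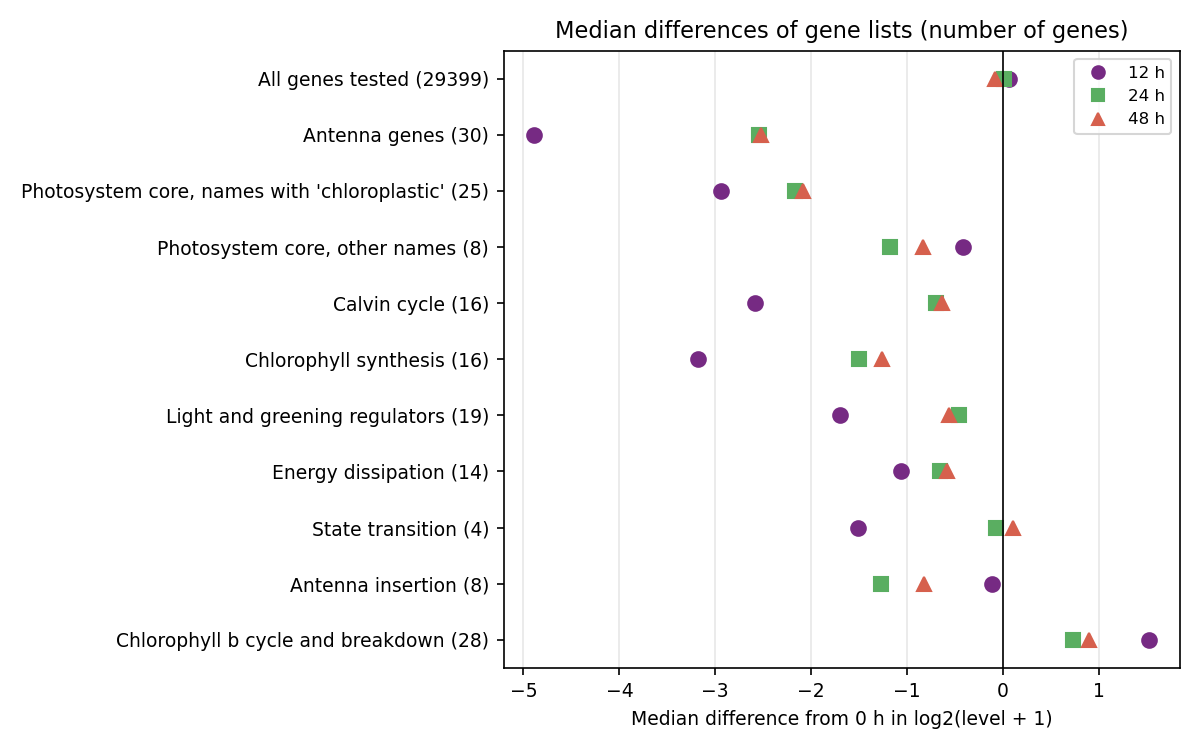
Median difference from 0 h in log2(level + 1) at 12, 24 and 48 h for the antenna genes, 9 other gene lists and all genes tested, with the number of genes in brackets. On this scale the antenna median is the lowest of the lists shown at each time (-4.89, -2.55 and -2.52). The list of the chlorophyll b cycle and breakdown lies above 0. As percent of the start, among genes averaging 10 or more, the antenna median is not the lowest at 48 h. There it is 17.2% (22 genes), against 16.8% (17) and 14.1% (3) for core hits with and without chloroplastic in their name. At 24 h it is 16.8%, against 21.1% and 19.6% for these core hits. At 12 h it is 2.20%, against 3.02% for chlorophyll synthesis (12 genes).

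Genes found by the names of light and greening regulators were lower at 12 h as a list. These are light receptors, phytochrome-interacting factors, HY5, the GATA factors of greening, and GLK1 and GLK2, which in Arabidopsis bind the promoters of antenna genes. The name search also took in a phytochrome A-associated F-box protein (TR73870|c0_g1) and a cryptochrome DASH hit (TR26949|c0_g1), both counted as lower at 12 h. Of 19 such genes, 15 were lower at 12 h, 3 at 24 h and 7 at 48 h, and none was higher, with medians of -1.70, -0.46 and -0.56. Over all genes tested, 17.7%, 16.9% and 19.6% were lower at these times, so the count at 24 h is near the background. HY5 (TR25750|c0_g1), which promotes greening in light, was at 97.0, 35.8, 140.6 and 90.7. The GLK1 hit TR74128|c3_g2 was at 17.2, 0.0547, 9.69 and 7.50.

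Genes found by the names of antenna insertion factors were not lower as a group at 12 h. The list holds 8 genes, and 1 of them (TR58630|c0_g2) is named a mitochondrial ALBINO3-like protein, not a thylakoid one. Of the 8, 2 were higher and 1 lower at 12 h, and 5 were lower at 24 h, with medians of -0.11 and -1.27. Over all genes tested, 15% were higher and 17.7% lower at 12 h, and 16.9% were lower at 24 h. The chloroplast signal recognition particle protein cpSRP43 (TR64367|c0_g2), a chaperone dedicated to antenna proteins, was at 69.8, 10.5, 9.34 and 8.07. It was low at all 3 later times and did not share the return of the antenna. The receptor FtsY (TR25019|c0_g1) was at 30.8, 29.8, 37.5 and 35.2, with no difference past the threshold.

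The kinase STN7 phosphorylates LHCII so that part of it moves to photosystem I, a process called state transition. Its hit TR13490|c0_g1 was at 70.6, 1.30, 61.9 and 66.3, low at 12 h and back near its start at 24 h. Of the 4 genes of this list, 2 were lower at 12 h, and at 24 and 48 h none was lower and 1 was higher. The higher 1 was a low STN7 piece on the same component (TR13490|c0_g2), at 0, 0.043, 4.66 and 8.36. Over all genes tested, 17.7% were lower at 12 h, and 13.4% and 12.2% were higher at 24 and 48 h. In the list of energy dissipation, 7 of 14 genes were lower and 2 higher at 12 h, with a median of -1.06. Over all genes tested, 17.7% were lower and 15% higher, so the count of higher genes is near the background. The named members of this list were a pair of hits to PGR5, which takes part in cyclic electron flow. They were at 1033, 6.46, 739 and 690.5 (TR50173|c1_g2) and at 974, 5.85, 441 and 364 (TR50173|c1_g3). Another PGR5 piece of the same component (TR50173|c1_g1), at 38.1, 0, 15.3 and 15.2, was also among the lower genes.

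Genes of the chlorophyll b cycle and of chlorophyll breakdown differed in both directions at 12 h. Of 28 genes, 15 were higher, 8 lower and 5 neither at 12 h, where 15% of all genes tested were higher and 17.7% lower. There were 13 higher and 2 lower at 24 h, and 14 higher and 4 lower at 48 h, with medians of 1.53, 0.74 and 0.90. Over all genes tested, 13.4% and 12.2% were higher and 16.9% and 19.6% lower at 24 and 48 h. The counts of lower genes at these times are thus not above the background. The list holds 13 hits to pheophytinase, and without them 7 of 15 genes were higher and 4 lower at 12 h, with a median of 0.71. The median of those 15 was -0.12 at 24 h, with 5 higher and 2 lower, the latter count near the background. STAY-GREEN takes magnesium from chlorophyll a and in Arabidopsis binds LHCII as it is broken down. Its hit TR28938|c0_g1 was at 1.88, 96.6, 189 and 293, and TR74648|c2_g2 at 0.0873, 189.6, 70.4 and 80.8. Chlorophyll b is needed for stable LHCII, and chlorophyllide a oxygenase forms it. Its 4 hits, named after their values were seen, had unlike time courses. TR80987|c0_g1 was at 74.1, 0.676, 42.9 and 44.2, and TR80987|c0_g2 at 26.5, 0.223, 0.527 and 0.428. TR14097|c1_g1 was at 9.61, 9.71, 8.76 and 10.7, and TR14097|c0_g1 at 1.38, 1.32, 3.05 and 3.09, with no difference past the threshold at 12 h.

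Clock genes differed in both directions at 12 h. The morning factor LHY (TR49676|c1_g3) was at 383, 0.700, 494 and 475. Of the evening genes, named after their values were seen, GIGANTEA (TR32264|c0_g2) was higher by 3.03 on the log2 scale at 12 h, where it was at 212, and was at 33.2 and 28.1 at the later times. EARLY FLOWERING 4 (TR49144|c0_g1) was at 0.827, 100.1, 1.94 and 0.720. After 3 names that match the search by accident were left out, 11 of 27 clock genes were lower, 5 higher and 11 neither at 12 h, with a median of -0.87. At 24 h none was lower and 3 were higher, with a median of 0.22. Over all genes tested, 17.7% were lower and 15% higher at 12 h, and 16.9% lower and 13.4% higher at 24 h. Both counts of higher clock genes are thus near the background. If treatment started at the same hour for every leaf, the leaves of 12 h also differ from the others in time of day, and there treatment and time of day cannot be told apart. At 24 and 48 h treatment and elapsed time cannot be told apart.

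The members share little that the names did not fix. Of the 30, 20 had a predicted protein with a Swiss-Prot hit and 19 of those carried the Pfam domain Chloroa_b-bind. The other 10 had no Swiss-Prot hit of a predicted protein in the table. The 30 members hit 17 Swiss-Prot entries and lay on 23 assembly components, of which 7 held 2 members each, 14 members in all. Pieces of 1 component may share reads or stand for 1 gene of the plant, so the count of members is not a count of antenna genes in the genome.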

How the data were processed

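Leaf RNA of 12 samples, 3 for each of 4 times, was sequenced by the authors. The deposited table holds 1 normalised expression signal per assembled gene and time, per the file headers. It was averaged over replicates before deposit: each of its 128256 values times 3 is a multiple of 0.001 (tolerance 0.001 of that step). Tools named without a role in the submitters' processing notes are RSEM 1.2.19, Trimmomatic 0.33, FastQC 0.11.3 and CASAVA. The unit, assembler and reference are not given in the sources, and depth is unknown. No sequences of the members were used here.

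With 1 mean per time the replicate tests could not be run. A rule of size (pseudocount 1, level of at least 1) took their place. Families follow the names of the Swiss-Prot hits, with 1 exception. The algal-entry hit TR35347|c0_g1 is named LHCII type I but was set apart with the early light-induced hits. The named genes are all members and, per other list, the gene of highest mean level and that of largest difference at 12 h. The members and lists were chosen with earlier results of these data known. Alternatives were 2 pseudocounts, 2 filters, 3 scalings, 2 ways of counting copies and 4 choices of members. Python 3.11.15, pandas 2.3.3 and matplotlib 3.10.9 were used.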

Additional observations from a re-analysis of the deposited data

How the results depend on the processing

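No paired analysis was possible because the table holds 1 mean per time and no column per replicate, so no replicate block or leave-one-out value could be made. Of 228 values over 13 alternatives, 215 stayed on their side of the threshold or within 1.5 times, none changed direction and 13 counts moved further. Some of the 215 could not move. Leaving out the filter changes nothing, since all 30 named genes reached the minimum, and adding up the pieces of a component leaves the summed level the same. With 1 assembled gene per Swiss-Prot entry (17 members) the genes lower than at 0 h were 16, 15 and 15 at 12, 24 and 48 h. In that setting 15 were higher and 1 lower from 12 to 24 h, and 0 were higher and 0 lower from 24 to 48 h. Fewer members enter this count by construction. With members that have a protein hit (20), 1 was lower from 12 to 24 h, and 0 were higher and 0 lower from 24 to 48 h. With a pseudocount of 10, 0 were lower from 12 to 24 h and 0 from 24 to 48 h, and with 0.1, 2 were lower from 24 to 48 h, as a larger pseudocount shrinks differences by construction. Over all alternatives the median lay between -5.43 and -3.64 at 12 h, -2.69 and -1.68 at 24 h and -2.62 and -1.57 at 48 h, and the summed level at 12 h between 2.48% and 2.82% of that at 0 h. Leaving out the early light-induced and algal-entry members, or the CAB21 hit of highest level, was added after seeing the data. Dividing columns to a common sum shifted the median of all genes by -0.13 at 12 h and -0.11 at 24 h, and median-of-ratios scaling shifted it by 0.10 from 24 to 48 h. Depth is unknown, so the reliability of the levels under 10 cannot be judged.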

Other observations

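Relatives of the antenna family outside the name rule, chosen after their values were seen, had several time courses. Stress enhanced proteins (SEPs) are small relatives that in Arabidopsis are induced by strong light. A hit to SEP2 (TR59187|c5_g2) was at 104, 560.1, 679 and 696 over the 4 times. Its second piece (TR59187|c5_g3) was at 5.17, 40.7, 48.9 and 42.7. Both were higher than at 0 h by 2-fold or more at each later time, when no antenna member was. The SEP1 hits were lower at 12 h, at 110.2, 37.3, 44.0 and 44.1 (TR23503|c0_g3) and at 57.9, 17.9, 47.9 and 19.1 (TR68867|c0_g1).

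PsbS, the photosystem II 22 kDa protein, carries the same Pfam domain and switches on the loss of excess energy as heat. Its hits were at 1048, 55.7, 482 and 719 (TR84394|c1_g1) and at 314, 10.4, 117 and 176 (TR81375|c0_g1). They dipped at 12 h with the antenna and stood at 46.0% and 37.2% of their start at 24 h and at 68.6% and 56.1% at 48 h. Ferrochelatase-2 (TR14135|c0_g1), a haem enzyme with the same domain, was at 16.6, 13.9, 17.2 and 17.5. STAY-GREEN LIKE (TR51536|c0_g1), a relative of STAY-GREEN, was at 74.0, 0.297, 1.53 and 0.291, while the STAY-GREEN hits described above were higher at each later time.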
